A study of Mus musculus with 4 samples.

Results

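Macrophages are the phagocytes that take up dying cells, debris and microbes, and at mid-gestation they enter embryonic tissues from yolk sac and fetal liver precursors. Their identity depends on the transcription factor PU.1 and on signals through the CSF1 receptor, and they are known by complement C1q, F4/80, Fc receptors and scavenger receptors. The genes described here are 37 genes used as markers of macrophages and other myeloid cells, listed by name. Each was read from its brightest probe, the one with the highest mean over 4 arrays. Of the 37 genes, 36 had a probe among the 16637 named genes on the array, and Laptm5 was not analysed here because no probe carried its name.

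RNA came from whole mandibles of C57BL/6 mouse embryos at stage E11.5, with 2 arrays of wild-type controls and 2 of embryos with conditional Bmp4 overexpression, in which doxycycline was given for 24 hours. Bmp4 encodes a secreted bone morphogenetic protein, and the question was how the transcripts of the mandible respond to a raised dose of it. The labels do not name the promoter or cell type that drove the transgene, whether controls received doxycycline, or whether the arrays of a group came from separate embryos, so p-values cover the spread between these arrays alone, and that spread may be technical. Values are log2 intensities that share 1 distribution on all arrays, with a lower quartile of 6.79 and a median of 7.95 over 29922 probes. Values under the lower quartile are compressed. Bmp4 itself read 12.02 on average in controls and 15.29 in overexpression samples, and all 10 genes listed as markers of mandibular tissue, such as Pdgfra and Msx1, lay above the lower quartile.

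Macrophage genes were higher in the Bmp4 overexpression mandibles in part of the list. Among the 36 members with a probe, 12 rose, 2 fell and the other 22 missed the threshold (limma, adjusted p under 0.05 over all probes), which is 33.3% higher and 5.56% lower. Over all named genes the same rule called 7.39% higher and 9.54% lower, and these shares also stand beside each count by role below. The median log2 fold change was 0.38 over the members and 0 over all named genes, and 30 of the 36 members had a value above 0, against 49.6% of all named genes. The 12 that rose were C1qa, C1qb, C1qc, Adgre1, Cd53, Fcgr3, Tyrobp, Trem2, Mrc1, Stab1, Mpeg1 and Gpnmb, and the 2 that fell were Cd14 and Coro1a. Most changes were modest: only C1qb, C1qc and Adgre1 passed the study's stated threshold of a 2-fold change with an unadjusted p under 0.05, upward, a threshold passed upward by 1.56% and downward by 1.76% of all named genes, and no member passed it downward. In RNA of a whole mandible, more cells of a type and more RNA per cell cannot be told apart.

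**Figure D1:**
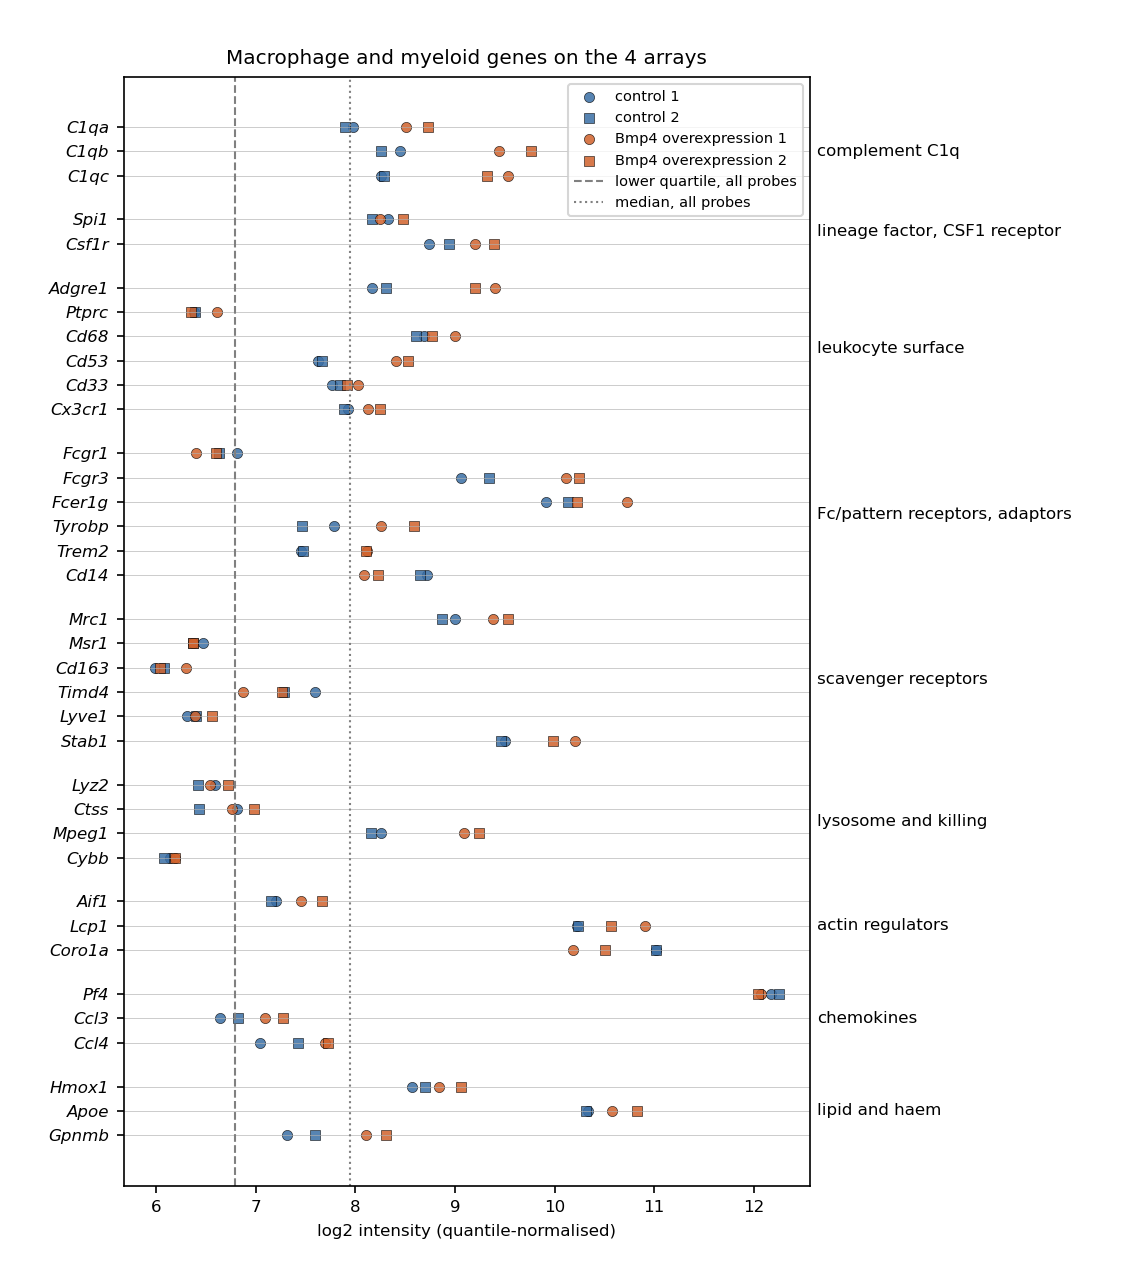
Log2 intensity (horizontal axis) of the brightest probe of each of the 36 measured members (rows, grouped by role) on each of the 4 arrays, with controls in blue and Bmp4 overexpression in orange. The dashed line is the lower quartile of 6.79 and the dotted line the median of 7.95 of all probes; the C1q chains, Adgre1, Fcgr3 and Mpeg1 show the groups apart, while Ptprc, Msr1, Cd163, Lyve1, Lyz2 and Cybb lie below the lower quartile on all 4 arrays.

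The count depends on having both arrays of each group. Without any 1 array the fit had 1 residual degree of freedom and called 0 members, and 0 of all named genes, at an adjusted p of 0.05 in limma. At an unadjusted p of 0.05, the members that were higher then numbered 12 without control replicate 1, 14 without control replicate 2, 19 without Bmp4 overexpression replicate 1 and 14 without Bmp4 overexpression replicate 2, against 20 with all arrays. The median log2 fold change of the members stayed between 0.32 and 0.39 in these fits.

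All 3 chains of complement C1q rose, C1qb and C1qc by more than 2-fold. C1qa, C1qb and C1qc encode the chains that assemble into the recognition molecule of the classical complement pathway, which also tags dying cells for uptake and is made mainly by macrophages. The genes lie side by side on mouse chromosome 4, in the order C1qb, C1qc, C1qa with no other protein-coding gene between them. Promoters were taken from RefSeq sequence (GRCm38.p6) for 27 of the 37 genes. The 250 bases before the start site of both C1q chains with an entry, C1qb and C1qc, are shown because these neighbours moved together, and those of Pf4 because it holds the same motif and did not pass. The capitals mark ACTTCCTC, the reverse complement of GAGGAAGT, the core of the site bound by PU.1.
C1qb (chr4:136886201-136886450, minus strand): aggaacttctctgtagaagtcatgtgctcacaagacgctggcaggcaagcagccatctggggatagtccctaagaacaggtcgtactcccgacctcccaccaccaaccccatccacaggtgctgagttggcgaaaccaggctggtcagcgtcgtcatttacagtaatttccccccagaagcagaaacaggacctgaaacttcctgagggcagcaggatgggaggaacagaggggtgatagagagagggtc
C1qc (chr4:136892915-136893164, minus strand): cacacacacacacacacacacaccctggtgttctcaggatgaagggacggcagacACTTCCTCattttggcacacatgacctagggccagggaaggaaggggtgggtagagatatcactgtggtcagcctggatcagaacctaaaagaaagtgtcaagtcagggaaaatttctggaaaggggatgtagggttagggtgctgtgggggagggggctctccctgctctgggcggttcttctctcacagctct
Pf4 (chr5:90772185-90772434, plus strand): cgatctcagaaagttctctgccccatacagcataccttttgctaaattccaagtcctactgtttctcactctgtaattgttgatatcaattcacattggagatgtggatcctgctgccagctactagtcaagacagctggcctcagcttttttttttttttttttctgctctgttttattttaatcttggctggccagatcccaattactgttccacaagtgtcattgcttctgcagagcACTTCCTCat

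GAGGAAGT was searched on both strands, as GAGGAAGT or ACTTCCTC, in windows of 300 bases that run from 250 before to 50 after the start site. It occurred in 4 of the 33 promoters of members (C1qc, Pf4, Ctss and Cd53, 1 match each), or 12.1%, and in 3.20% of all 32851 promoters in the table. In C1qc the match began at position -195 and in Pf4 at -10 relative to the start site. The C1qb window held none. Of these 4 genes, C1qc and Cd53 rose and Pf4 and Ctss did not pass. A match of letters describes the sequence and says nothing of binding.

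C1qb read 8.45 and 8.26 in the controls and 9.44 and 9.76 in the overexpression samples, a 2.37-fold rise (log2 fold change 1.25 ± 0.15 SE, limma, adjusted p = 0.0111). C1qc read 8.26 and 8.29 in the controls and 9.53 and 9.32 in the overexpression samples, a 2.22-fold rise (adjusted p = 0.00824 in limma). C1qa read 7.98 and 7.90 in the controls and 8.51 and 8.73 in the overexpression samples, a 1.60-fold rise (log2 fold change 0.68 ± 0.12 SE, limma, adjusted p = 0.0254). For each chain both overexpression arrays lay above both controls, and the lowest gap was that of C1qa. The adjusted p of C1qa was 0.120 after scaling to a housekeeping list. In the alternatives that kept all 4 arrays and had no replicate block, the highest adjusted p was 0.0200 for C1qb and 0.0128 for C1qc in limma.

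Neither the lineage factor gene Spi1 nor the growth factor receptor gene Csf1r passed. Spi1, which encodes PU.1, read 8.33 and 8.17 in the controls and 8.25 and 8.48 in the overexpression samples, so the groups overlapped. Its log2 fold change was 0.11 ± 0.13 SE and did not pass (limma, adjusted p = 0.590). Csf1r, the receptor for the growth factors CSF1 and IL-34, read 8.74 and 8.94 in the controls and 9.20 and 9.39 in the overexpression samples. The groups did not overlap, but its log2 fold change of 0.46 ± 0.13 SE did not pass (limma, adjusted p = 0.0710). Its second probe lay below the lower quartile on all arrays, between 5.96 and 6.12, and gave a log2 fold change of -0.045.

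Among genes of the leukocyte surface, 2 of 6 measured members rose. Adgre1 encodes F4/80, the classical surface marker of mouse macrophages. It read 8.17 and 8.31 in the controls and 9.40 and 9.20 in the overexpression samples, a 2.08-fold rise (log2 fold change 1.06 ± 0.12 SE, limma, adjusted p = 0.0103). Cd53, a tetraspanin of all leukocytes, read 7.63 and 7.67 in the controls and 8.41 and 8.53 in the overexpression samples, a 1.77-fold rise (adjusted p = 0.0129 in limma). Its second probe, at or under 6.66 on all arrays and so below the lower quartile, had a log2 fold change of 0.51 and also passed (adjusted p = 0.0446).

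Ptprc, which encodes the pan-leukocyte antigen CD45, was dim on both of its probes. It read 6.38 and 6.39 in the controls and 6.61 and 6.35 in the overexpression samples, below the lower quartile on all arrays, and its second probe lay between 6.10 and 6.24. Cd68, a glycoprotein of phagocyte lysosomes, read 8.69 and 8.61 in the controls and 9.0 and 8.77 in the overexpression samples, and its log2 fold change of 0.23 did not pass (limma, adjusted p = 0.249). Cx3cr1, the fractalkine receptor of monocytes and resident macrophages, and Cd33, an inhibitory sialic acid receptor, differed by 0.28 and 0.17 on the log2 scale between group means, with no overlap of groups, and missed the threshold too. Absence of overlap alone is common on these arrays: it held upward for 24 of the 36 members and for 31.0% of all named genes, and downward for 5 members and 32.3% of all named genes.

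**Figure D2:**
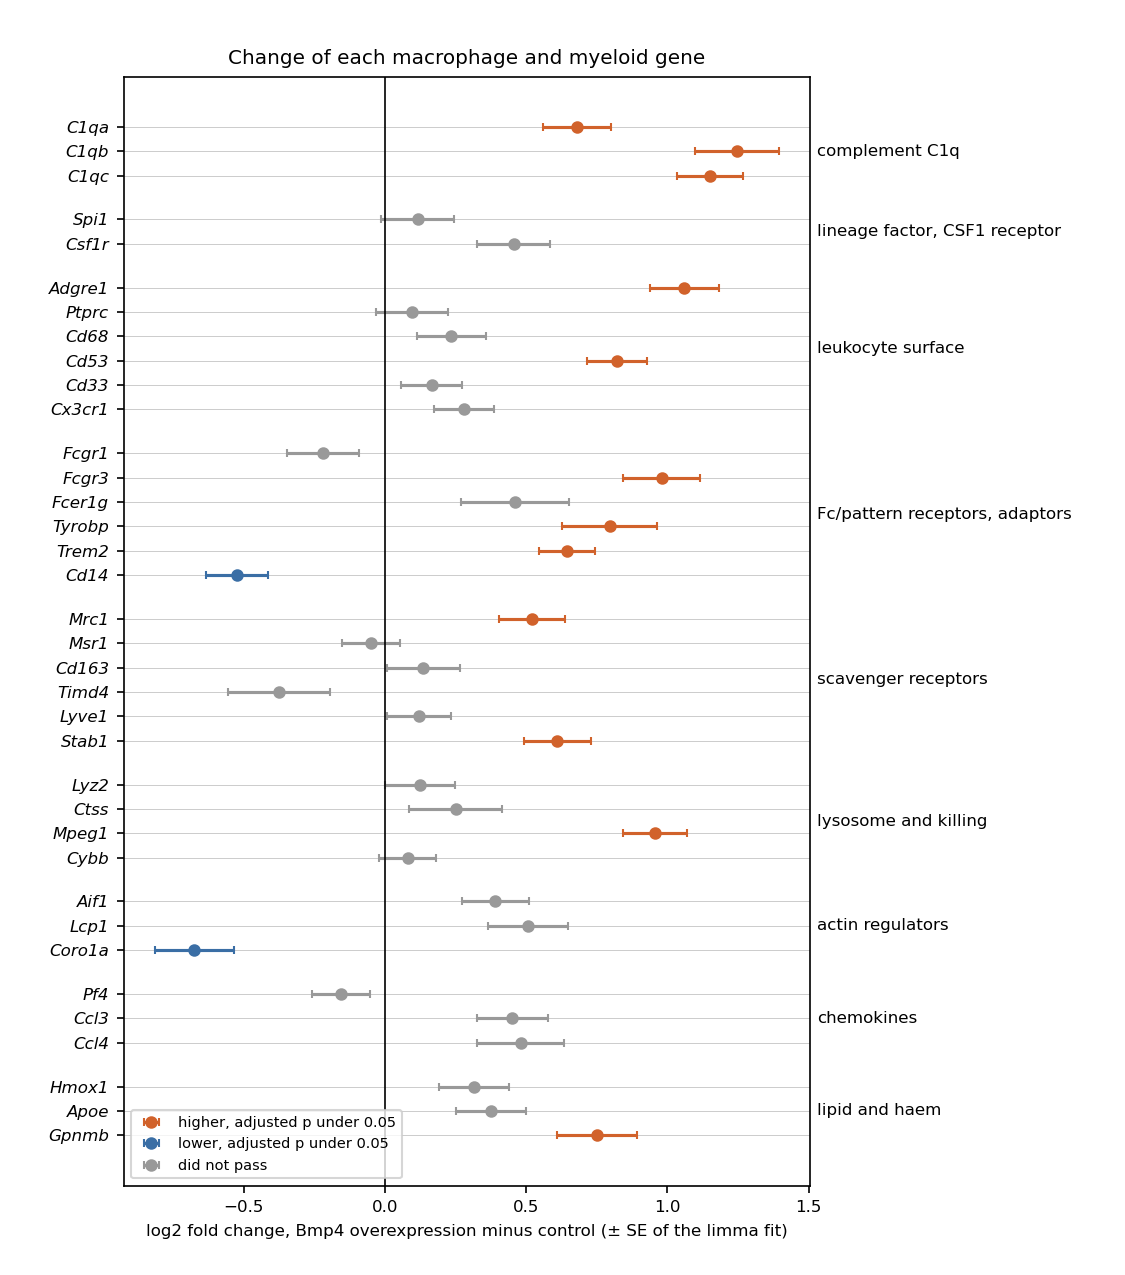
Log2 fold change of each member, Bmp4 overexpression minus control (horizontal axis), with the standard error of the limma fit as bars and genes grouped by role in rows. Orange marks the 12 members that rose, blue the 2 that fell (Cd14 and Coro1a) and grey the 22 that did not pass; the highest value is that of C1qb, 1.25.

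Of 6 genes for Fc receptors, other sensing receptors and their signalling adaptors, Fcgr3, Trem2 and Tyrobp rose and Cd14 fell. Of the 3 that bind antibody or serve its receptors, Fcgr3, Fcgr1 and Fcer1g, 1 rose and 2 did not pass. Fcgr3, a low-affinity receptor for IgG, read 9.06 and 9.34 in the controls and 10.11 and 10.25 in the overexpression samples, a 1.97-fold rise (log2 fold change 0.98 ± 0.14 SE, limma, adjusted p = 0.0147). Fcgr3 is closely related to Fcgr2b and Fcgr4, and which of them its probe also reads is not known from the table; for the probes named Fcgr2b and Fcgr4 the log2 difference was 0.26 and 0.02, short of the threshold. Trem2, a lipid-sensing receptor, read 7.46 and 7.48 in the controls and 8.12 and 8.11 in the overexpression samples, so that replicates were closer together than for the other 11 members that rose (1.56-fold, adjusted p = 0.0183 in limma, and 0.152 after scaling to the housekeeping list). Tyrobp encodes DAP12, the adaptor through which TREM2 signals. It read 7.79 and 7.47 in the controls and 8.26 and 8.59 in the overexpression samples, a 1.74-fold rise (adjusted p = 0.0372 in limma, and 0.0611 with 200 added to the linear values).

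Fcer1g, the gamma chain that Fc receptors share, read 9.91 and 10.13 in the controls and 10.73 and 10.23 in the overexpression samples. The second overexpression array lay only just above the controls, and the log2 fold change of 0.46 did not pass (limma, adjusted p = 0.163). Fcgr1, the high-affinity IgG receptor, had a mean below the lower quartile and a log2 fold change of -0.22 that did not pass. Cd14, the co-receptor for bacterial lipopolysaccharide, went the other way. It read 8.72 and 8.65 in the controls and 8.09 and 8.23 in the overexpression samples, and fell by 0.53 on the log2 scale (limma, adjusted p = 0.0357, with 0.172 after scaling to the housekeeping list and 0.0501 with an intensity trend in the variance).

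Among the 6 scavenger and resident-macrophage receptors, Mrc1 and Stab1 rose. Mrc1 encodes the mannose receptor CD206, and read 9.0 and 8.87 in the controls and 9.38 and 9.53 in the overexpression samples, a 1.43-fold rise (adjusted p = 0.0409 in limma). Stab1, a scavenger receptor of macrophages and of some endothelium, read 9.50 and 9.46 in the controls and 10.20 and 9.98 in the overexpression samples, a 1.53-fold rise (adjusted p = 0.0308 in limma). Both groups were apart for these genes, yet neither passed after scaling to the housekeeping list (adjusted p = 0.311 and 0.190). Timd4, a phosphatidylserine receptor for dying cells, read 7.60 and 7.28 in the controls and 6.87 and 7.26 in the overexpression samples and did not pass (limma, adjusted p = 0.215). Msr1, Cd163 and Lyve1, the class A scavenger receptor, the haemoglobin receptor and a hyaluronan receptor, lay below the lower quartile on all arrays, where values are compressed.

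Among 4 genes of the lysosome and of killing, 1 rose and 3 were dim. Mpeg1 encodes perforin-2, a pore-forming protein of macrophages, and read 8.26 and 8.16 in the controls and 9.09 and 9.24 in the overexpression samples, a 1.94-fold rise (log2 fold change 0.95 ± 0.11 SE, limma, adjusted p = 0.0108). Lyz2, lysozyme, and Cybb, the catalytic subunit of the phagocyte oxidase, lay below the lower quartile on all arrays, between 6.42 and 6.72 for Lyz2 and between 6.08 and 6.19 for Cybb. Ctss, a lysosomal cysteine protease, lay around that line, at 6.81 and 6.43 in the controls and 6.76 and 6.98 in the overexpression samples, and did not pass.

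The 3 actin regulators went both ways. Coro1a, coronin 1A of haematopoietic cells, read 11.02 on both controls and 10.18 and 10.51 in the overexpression samples, a 1.60-fold fall (log2 fold change -0.68 ± 0.14 SE, limma, adjusted p = 0.0351, and 0.0568 after scaling to the housekeeping list). Lcp1, the leukocyte actin bundler L-plastin, read 10.23 and 10.24 in the controls and 10.91 and 10.57 in the overexpression samples, and did not pass (log2 fold change 0.51, limma, adjusted p = 0.0698). Aif1, which encodes the microglial marker IBA1, read 7.20 and 7.15 in the controls and 7.46 and 7.67 in the overexpression samples, and did not pass either (adjusted p = 0.0826 in limma). Coro1a and Lcp1 are expressed in most leukocytes, and they were 2 of the 5 brightest members.

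None of the 3 chemokine genes passed in limma, though Ccl3 and Ccl4 had unadjusted p-values of 0.0129 and 0.0224. Pf4, platelet factor 4, is made in large amounts by megakaryocytes as well as by some macrophages and was the brightest member. It read 12.17 and 12.25 in the controls and 12.07 and 12.04 in the overexpression samples, with a log2 fold change of -0.15 that did not pass (adjusted p = 0.350 in limma). Ccl3 and Ccl4, which attract monocytes, had log2 fold changes of 0.45 and 0.48 (adjusted p = 0.0678 and 0.0926).

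Of the lipid and haem genes, Gpnmb rose. It encodes a glycoprotein of lipid-laden macrophages, pigment cells and osteoblasts, and read 7.32 and 7.60 in the controls and 8.11 and 8.31 in the overexpression samples, a 1.68-fold rise (adjusted p = 0.0290 in limma, and 0.0695 after scaling to the housekeeping list). Its second probe had a log2 fold change of 0.63 and passed (adjusted p = 0.0265), and the dimmest of its 3 probes had 0.32 and did not (adjusted p = 0.214). Apoe, a lipid carrier that many cells make, read 10.34 and 10.32 in the controls and 10.58 and 10.83 in the overexpression samples, and Hmox1, haem oxygenase 1, read 8.57 and 8.70 in the controls and 8.84 and 9.06 in the overexpression samples. Neither passed (limma, adjusted p = 0.100 and 0.149).

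**Figure D3:**
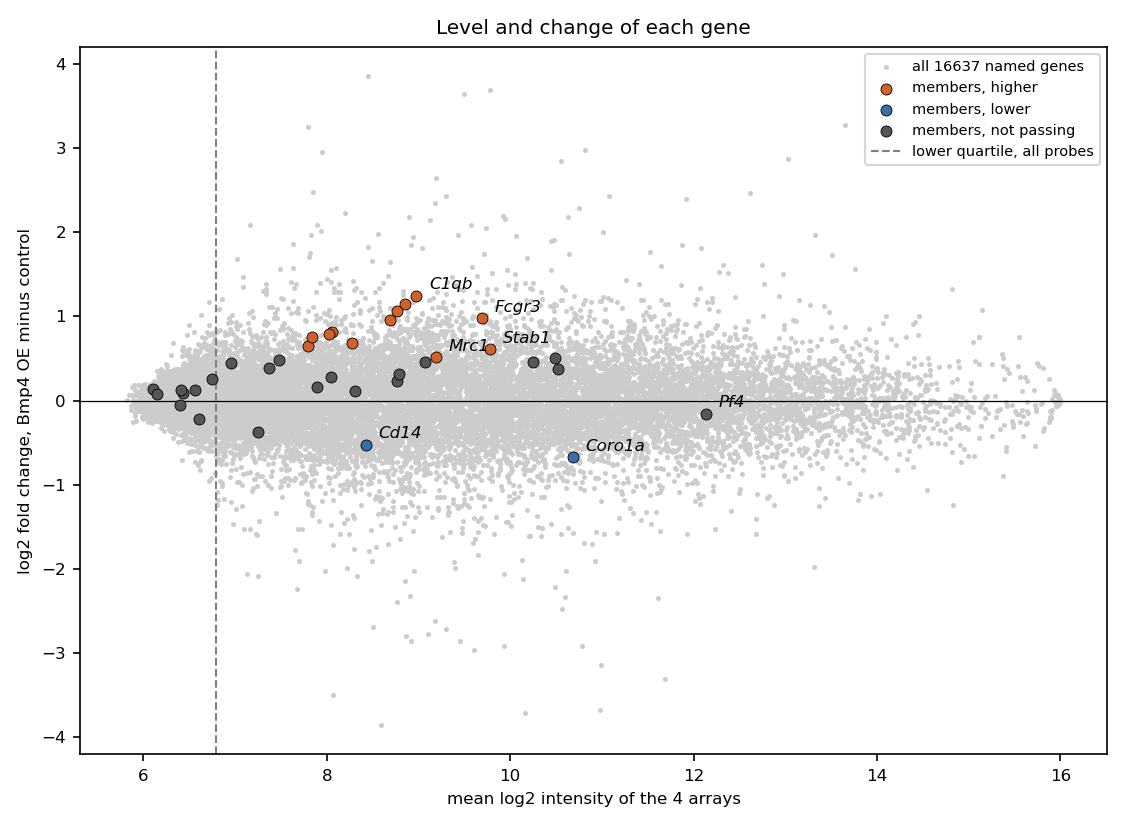
Mean log2 intensity of the 4 arrays (horizontal axis) against the log2 fold change, Bmp4 overexpression minus control (vertical axis), for all 16637 named genes in grey and the 36 members in colour. The members that rose lie at middle intensities, the 8 members left of the lower quartile (dashed line) are near 0, and Pf4 and Coro1a, among the brightest members, lie below 0.

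Members were also grouped by how restricted they are to macrophages. Of 12 members known mainly from macrophages (the C1q chains, Adgre1, Csf1r, Fcgr1, Cx3cr1, Trem2, Timd4, Mpeg1, Cd163 and Mrc1), 7 rose and 5 did not pass, with a median log2 fold change of 0.58. That is 58.3% higher, against 7.39% higher and 9.54% lower over all named genes. The summed linear intensity of these 12 members was 3233 and 3159 in the controls and 5112 and 5431 in the overexpression samples, 1.65 times the control mean on average. Of the 4 measured members found in all leukocytes (Ptprc, Cd53, Coro1a and Lcp1), 1 rose, 1 fell and 2 did not pass. Their summed linear intensity was 3559 and 3573 in the controls and 3522 and 3430 in the overexpression samples. Coro1a, the gene that fell, makes up most of the control sums. The mean log2 value of the 4 genes was 8.815 and 8.83 in the controls and 9.03 and 8.99 in the overexpression samples. Of 6 members also expressed by other lineages (Lyve1, Stab1, Pf4, Hmox1, Apoe and Gpnmb), 2 rose and 4 did not pass. That is 33.3% higher, with a median log2 fold change of 0.345 and 5 of the 6 values above 0. The subsets were chosen with earlier results of these data known, and the difference between them was not tested.

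Further myeloid genes were called higher at a share near that of all genes, and lower at a smaller share. Of 35 further measured genes of myeloid cells, 4 rose, 1 fell and 30 did not pass, which is 11.4% higher and 2.86% lower, near the 7.39% and under the 9.54% of all named genes, and their median log2 fold change was 0.02. Those that rose were Lgmn, a lysosomal protease, with a log2 fold change of 0.83, Ms4a6c with 0.58, Unc93b1, which escorts Toll-like receptors, with 0.56, and Cd84, a leukocyte adhesion receptor, with 0.53. Ncf4, a cytosolic subunit of the phagocyte oxidase, fell by 0.43. The integrin gene Itgam, which encodes CD11b, read 8.86 and 8.82 in the controls and 8.93 and 8.98 in the overexpression samples and did not pass (limma, adjusted p = 0.482), and Irf8, a transcription factor of monocytes and microglia, had a log2 fold change of 0.02. Of these 35 genes, 11 had a mean below the lower quartile, against 8 of the 36 members.

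Among 13 measured genes for factors that feed or attract macrophages, 1 rose, 3 fell and 9 did not pass, which is 7.69% higher and 23.1% lower, against 7.39% and 9.54% of all named genes. Cxcl12, a chemokine of mesenchyme, fell most, from 11.43 and 11.51 in the controls to 10.02 and 9.77 in the overexpression samples (log2 fold change -1.57, limma, adjusted p = 0.00478). Cx3cl1, the ligand of CX3CR1, and Cxcl10 fell by 0.41 and 0.52 on the log2 scale, and Tgfb1 rose by 0.65. Csf1 and Il34, the ligands of the CSF1 receptor, differed by -0.35 and 0.37 on the log2 scale, short of the threshold (limma, adjusted p = 0.0711 and 0.113). Among 17 genes of the uptake of dying cells, 4 rose, 2 fell and 11 did not pass, which is 23.5% higher and 11.8% lower. Abca1, a lipid exporter, rose by 1.30 from control values of 6.85 and 6.45. Gas6 and Mfge8, bridging proteins to phosphatidylserine, rose by 0.70 and 0.65. Tyro3 and Elmo1 fell by 0.69 and 0.54 on the log2 scale, and the receptor gene Mertk had a log2 fold change of -0.09.

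Markers of other cells and of the tissue moved as follows, and their part in the members' values was not tested. The counts stand against 7.39% higher and 9.54% lower over all named genes. Higher were 7.14% of endothelial, 18.2% of neutrophil and mast cell and 22.2% of osteoclast genes. So were 3 of 10 mandibular tissue genes. The epithelial share, 4 of 8, lay above the members' 33.3%. Lower were 11.1% of lymphocyte, 12.5% of megakaryocyte and platelet, 22.2% of osteoclast and 28.6% of erythroid genes. So were 2 of 8 epithelial and 2 of 10 mandibular tissue genes. Of 14 endothelial genes, 1 rose (Cldn5) and 13 did not pass, with a summed linear intensity of 13136 and 13173 in the controls and 15403 and 15355 in the overexpression samples, and 13 of the 14 were at or above the lower quartile. Of 8 megakaryocyte and platelet genes, 1 fell (Ppbp, the gene beside Pf4, by 0.78) and 7 did not pass, with sums of 2831 and 2919 in the controls and 2338 and 2323 in the overexpression samples. Of 9 measured lymphocyte genes, 1 fell (Thy1, which mesenchyme and neurons also express) and 8 did not pass. Their median log2 fold change was 0.32, near the members' 0.38, and 6 of the 9 values were above 0. Of 11 neutrophil and mast cell genes, S100a8 and Gata2 rose, by 2.08 and 2.64, and 9 did not pass. The median log2 fold change of these 11 was 0.24, with 10 values above 0. Their summed linear intensity was 3326 and 3281 in the controls and 5461 and 5613 in the overexpression samples. That is 1.68 times the control mean on average, beside 1.65 for the 12 members known mainly from macrophages. Of the 11, 4 had a mean below the lower quartile, among them S100a9 with a log2 fold change of 0.005. Of 9 osteoclast genes, Ocstamp and Oscar rose by 0.91 and 0.69 while Nfatc1 and Ctsk fell by 1.28 and 0.58. Of 7 measured erythroid genes, Alas2 and Klf1 fell, by 0.58 and 0.51, and 5 did not pass, among them the globin genes Hbb-bh1, Hba-x and Hbb-y, all at or above 15.75 on every array and so near the top of the scale of 16. Of 8 epithelial genes, 4 rose, 2 fell and 2 did not pass, with a median log2 fold change of 0.42, close to the members' 0.38. Krt8, Krt18 and Cdh1 rose by 1.23, 1.20 and 0.91 and Krt14 fell by 0.79. The list's summed linear intensity was 37660 and 39450 in the controls and 32228 and 33561 in the overexpression samples. Krt14, at 14.73 and 14.85 in the controls, makes up most of the control sums. The list's mean log2 value went the other way, from 10.899 and 10.815 in the controls to 11.12 and 11.223 in the overexpression samples. Of the 10 mandibular tissue genes, 3 rose, 2 fell (log2 fold changes of -3.15 for Barx1 and -1.19 for Twist1) and 5 did not pass. Their sums were 73861 and 73463 in the controls and 75115 and 75820 in the overexpression samples. Their mean log2 value was 11.83 and 11.78 in the controls and 11.59 and 11.57 in the overexpression samples.

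**Figure D4:**
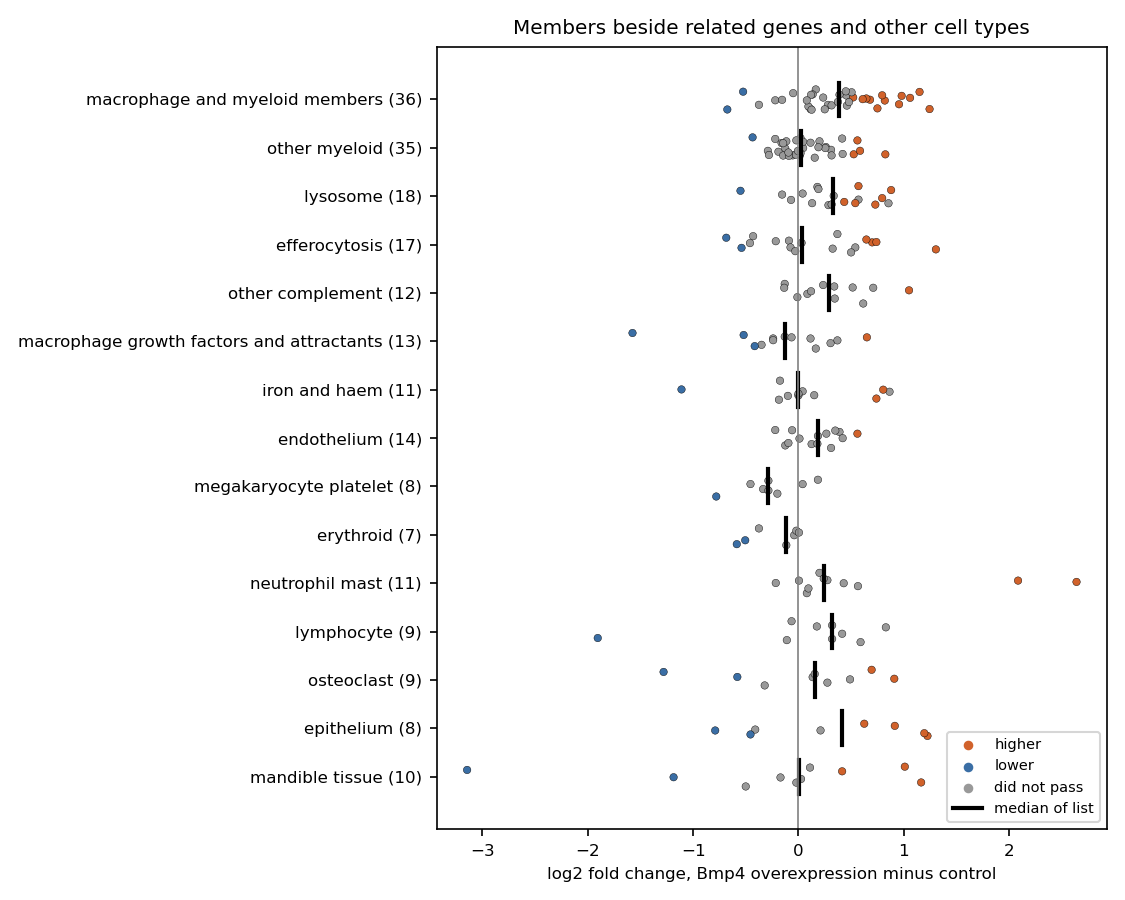
Log2 fold change, Bmp4 overexpression minus control (horizontal axis), of each measured gene of the member list, of related lists and of lists for other cell types (rows, with the number measured); dots are genes, orange where they rose, blue where they fell and grey where they did not pass, and the black bar is the list's median. The members' median is 0.38, that of other myeloid genes 0.02 and that of megakaryocyte and platelet genes -0.28. Medians near that of the members are those of epithelial genes (0.42), lysosome genes (0.33) and lymphocyte genes (0.32).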

How the data were processed

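The authors deposited 1 table of log2 intensity values, 29922 probes on 4 one-colour Cy5 arrays, 1 sample each. Per the labels, total RNA was amplified as aminoallyl RNA before dye coupling. The log base was read from the maximum of 16, and the sorted columns were identical, so the values had been quantile-normalised. For the scanner, the background correction, the software and the genome build: not given in the sources used here. The number of arrays limits the precision.

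Probes were named from the platform annotation: 17558 had a current symbol, 3410 an older one matched to a RefSeq synonym, 52 a symbol without a match and 8902 none. All probes were fitted in R 4.3.3 by limma 3.58.1 (eBayes after lmFit, two-sided, no covariate), with Benjamini-Hochberg adjustment at 0.05 over all probes. With 2 arrays against 2, the smallest p of an exact permutation test is 0.333. Same-numbered arrays did not deviate together (r = -0.07), so numbers were not taken as pairs.

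The members and lists were chosen with earlier results of these data known. All members were to be accounted for, and in other lists up to 4 genes with the smallest p and the 2 brightest could be named. Itgam, Irf8, Fcgr2b, Fcgr4, Csf1, Il34, Gas6, Mertk, Ncf4, Slc40a1, Hbb-bh1, S100a9 and Gla were named after their values were seen. Alternatives covered scaling, added constants, dim-probe filters, variance priors, a replicate block, each array left out and the choice of probe.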

Additional observations from a re-analysis of the deposited data

How the results depend on the processing

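The 12 members that rose and the 2 that fell were called again under cyclic loess, 50 added to the linear values, removal of probes under the lower quartile, a robust variance prior, and the mean of all probes or the second-brightest probe of a gene. With 200 added, 11 rose, and without probes under the median, 10 of the 21 members still tested rose; an intensity trend left 1 fall. Subtracting the median of 9 housekeeping genes, which ran from 10.21 to 10.56 between the 2 overexpression arrays, left 7 higher and 0 lower, losing C1qa, Trem2, Mrc1, Stab1, Gpnmb, Cd14 and Coro1a (limma, with 11 higher and 2 lower at an unadjusted p of 0.05). With the replicate block, 0 were called higher and 0 lower (limma, lowest adjusted p of any probe 0.0745, with 19 higher and 2 lower at an unadjusted p of 0.05). Leaving out each array gave 0 to 0 higher and 0 to 0 lower, while at the 2-fold threshold 3 to 4 were higher and 0 lower. Under the median of all probes lay 15 members, against 8 under the lower quartile. The second probe of Csf1r turned its sign (-0.045), and Ptprc ran from -0.035 to 0.225 with each array left out. No other member changed sign. The limit is 2 arrays a group and the compressed low values.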

Other observations

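Genes of the general lysosome, which all cells carry and macrophages hold in large amounts, were higher in part. Of 18 measured, 6 rose, 1 fell (Gla, by 0.55 on the log2 scale) and 11 did not pass. That is 33.3% higher and 5.56% lower, against 7.39% and 9.54% of all named genes. The list's median log2 fold change was 0.33. Npc1, a cholesterol transporter, rose by 0.88, from 9.89 to 10.77 on average, the cathepsin genes Ctsd and Ctsb rose by 0.80 and 0.73, and Lipa, the lysosomal acid lipase, by 0.54 on the log2 scale. The membrane protein gene Lamp1 differed by 0.13 on the log2 scale, short of the threshold (limma, adjusted p = 0.417). The summed linear intensity of the list was 56915 and 53967 in the controls and 74332 and 75224 in the overexpression samples.

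Among 12 measured complement genes other than the C1q chains, Serping1, which encodes the inhibitor of the C1 complex, rose, from 8.93 and 8.95 in the controls to 9.97 and 10.01 in the overexpression samples (log2 fold change 1.05 ± 0.10 SE, limma, adjusted p = 0.00687). The other 11 did not pass, C3 with a log2 fold change of 0.52 (adjusted p = 0.0674). Of 11 iron and haem genes, 2 rose, 1 fell and 8 did not pass. That is 18.2% higher and 9.09% lower, against 7.39% and 9.54% of all named genes, with a median log2 fold change of 0. Slc11a1, the iron transporter of phagosomes, rose by 0.81 and the receptor gene Lrp1 by 0.74. Slc48a1, a haem transporter, fell by 1.11. The iron exporter gene Slc40a1 had a log2 fold change of 0.04.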
